A study of Mus musculus with 8 samples.

Results

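Interferon-stimulated genes are the transcripts that cells raise when type I or type II interferon binds its receptor. They were examined here in the mouse auditory nerve as a list of 43 gene symbols, of which 42 have a row in the deposited table of 15035 genes and all 42 passed the filter on low values. The remaining symbol, Zbp1, was not analysed here. RNA was sequenced in bulk from microdissected auditory nerve of 21-day-old mice (P21), each library holding the pooled nerves of both cochleas of 1 mouse. The wild-type group has 4 libraries, numbered 1 to 4, and the Mef2c heterozygote (+/-) group has 4, numbered 5 to 8. Mef2c encodes a MADS-box transcription factor, and the comparison asks which transcripts differ when a mouse carries a single working copy. Strain, sex, litter and the way the Mef2c allele was made are not given in the sources used here, and neither is an infection or treatment.

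Type I interferons bind the receptor pair IFNAR1 and IFNAR2, and the kinases JAK1 and TYK2 then activate STAT factors, STAT2 among them, which join IRF9 on a DNA motif called the interferon-stimulated response element. Type II interferon binds IFNGR1 and IFNGR2 and acts mainly on another motif, the gamma-activated site. Many of the induced products detect, degrade or block foreign nucleic acid, and several of them are also present at a basal level in uninfected tissue. In nerve and brain, microglia, macrophages, endothelial cells, glia and neurons can all carry such transcripts, and in bulk RNA a larger number of cells cannot be told apart from more RNA per cell.

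The values are normalized counts, read counts that were scaled to make libraries comparable, and the depth was estimated at 13360997 to 21508709 reads per library. Markers of neurons and of myelinating Schwann cells were abundant in every library. The 8 neuronal markers summed to 195317.9 to 269094.8 normalized counts over all libraries. The 6 Schwann cell markers summed to 206928.6 to 243200.6 in wild type and 157014.1 to 185661.9 in the libraries labelled heterozygote. The 6 oligodendrocyte markers summed to 24722.4 to 27201.7 and 10738.1 to 15597.1, with 3 of them lower at a limma-trend adjusted p under 0.05. Mef2c itself was higher in all 4 libraries labelled heterozygote (668 ± 66.8, SD, n = 4) than in the wild-type libraries (462 ± 50.4, SD, n = 4). Its limma-trend unadjusted p was 0.00128 and its adjusted p 0.186, and 3.4% of all genes were apart in that direction. A higher level is opposite to a plain loss of 1 copy, but without knowing how the allele was made the level cannot check the label. Every direction is therefore between libraries as they are labelled. Xist, the RNA that coats the inactive X, had 5175 to 8615 normalized counts in 6 libraries but 12 in wild-type library 1 and 7.6 in library 5, labelled heterozygote. Neutrophil markers also set libraries apart, and their values are given below.

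Most interferon-stimulated genes had slightly higher mean values in the libraries labelled heterozygote, and none passed the threshold. Of the 42 genes, 37 had a positive log2 fold change, against 52.3% of all genes tested, and the median was 0.33, against 0.02 over all 14870. The middle of the list, from the lower to the upper quartile, lay between 0.21 and 0.45, and in 33 of the 42 the log2 fold change was under 0.5 in size. The test was limma-trend on log2(normalized counts + 1), a scale that understates the change of low genes, with Benjamini-Hochberg adjustment over all genes tested and a threshold of 0.05. 0 of 42 had an adjusted p under 0.05, against 0.0807% of all genes (12 genes). At an unadjusted limma-trend p under 0.05, 7 of 42 were higher, against 6.72% of all genes, and 0 were lower, against 7.34% (14.1% in either direction). They are Irf7, Ddx58, Oas2, Lgals3bp, Herc6, Gbp3 and Gbp7. In 2 genes, Ddx58 and Gbp7, every library labelled heterozygote was above every wild-type library, against 3.4% of all genes in that direction, and no member was lower in that way, against 3.86%. Gbp7 was also the single member with an FDR under 0.05 (0.0438) in the authors' deposited table, where 1.61% of genes had one. The same 7 members were higher with a p under 0.05 in the authors' deposited table, against 6.76% of its genes in that direction.

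Heterozygote-labelled library 7 stood above the others. It had the highest value of all 8 libraries in 33 of the 42 genes, against 8.21% of all genes tested, and it lay above the gene's mean over libraries in all 42. Library 7 exceeded every wild-type library in 35 genes, heterozygote-labelled library 8 did so in 21, library 6 in 12 and library 5 in 5. Summed over the 42 genes, wild-type libraries 1 to 4 held 13027.1, 16784.3, 11813.1 and 11041.6 normalized counts. Libraries 5 to 8, labelled heterozygote, held 12616.3, 15205.6, 22979.5 and 16385.7. Heterozygote-labelled library 5 lay below 2 of the wild-type libraries, and wild-type library 2 lay above heterozygote-labelled libraries 5, 6 and 8 but below 7. Without library 7 the median log2 fold change was 0.18 and 32 of 42 were positive. Then 3 of 42 were higher at an unadjusted limma-trend p under 0.05, against 4.93% of all genes in that fit.

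**Figure D1:**
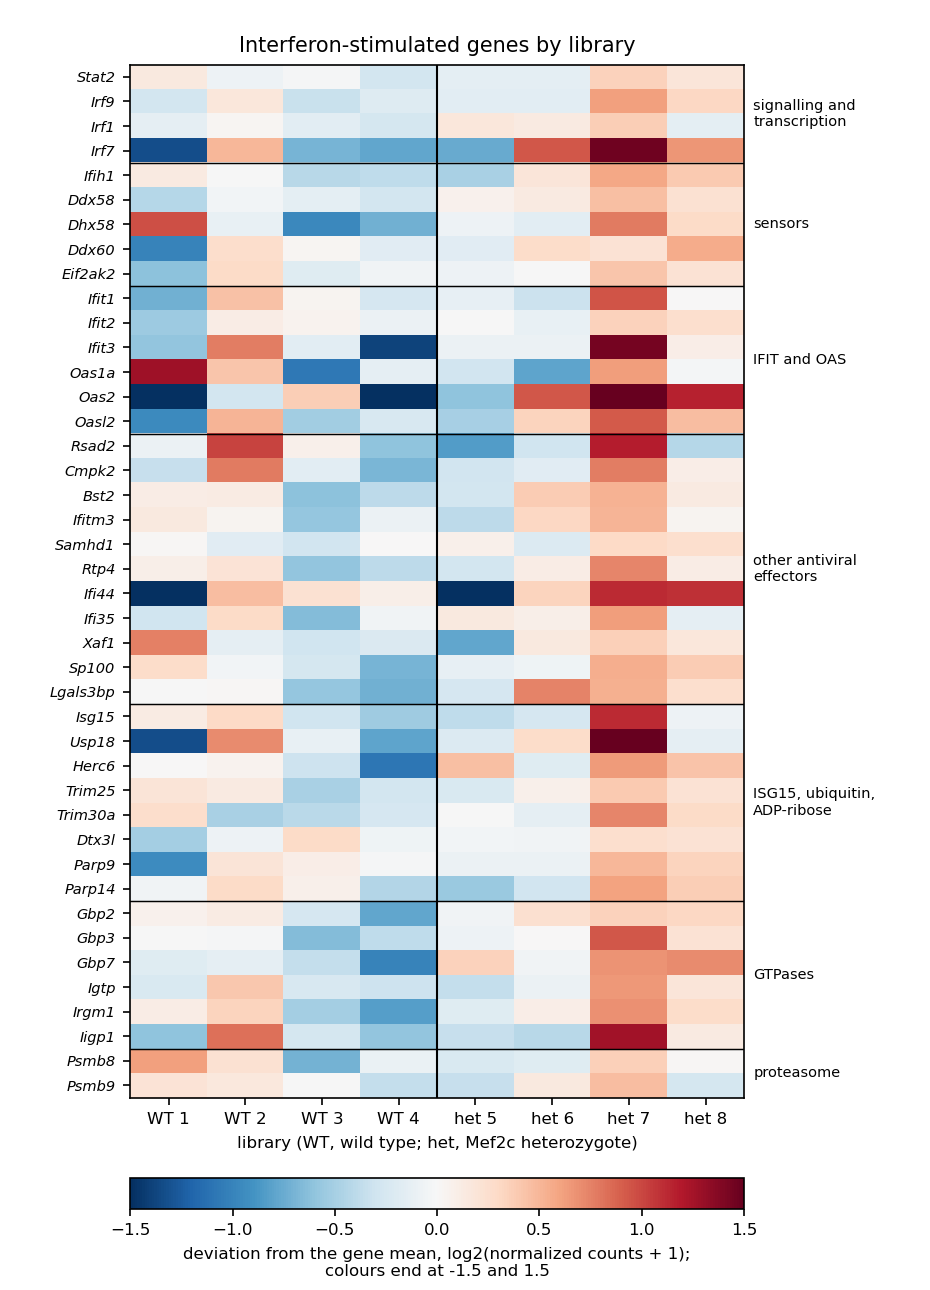
Deviation of each interferon-stimulated gene (rows, grouped by role) from its mean over the 8 libraries (columns), on the scale log2(normalized counts + 1); red is above and blue below the mean, and the line separates the genotypes. The column of heterozygote-labelled library 7 is red in all 42 rows and wild-type library 2 is above the mean in 30, while wild-type library 4 is below it in 40 and heterozygote-labelled library 5 in 36.

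Leaving out other libraries also moved the number of members higher at an unadjusted limma-trend p under 0.05, and none was lower at that p in these fits. Without wild-type library 2 it was 13 of 42, against 6.41% of all genes in the same fit. It was 11 without heterozygote-labelled library 5, against 6.19%, and 3 without wild-type library 4, against 4.88%. Without heterozygote-labelled library 8 it was 4, against 3.84%. Members whose libraries labelled heterozygote were all above wild type numbered 2 with all libraries, and non-overlap is more frequent among all genes when a group is smaller. There were 4 such members without wild-type library 2, against 5.36% of all genes, and 9 without heterozygote-labelled library 5, against 6.0%. Without heterozygote-labelled library 6 there were 4, against 5.32%. In the 6 libraries that remain without both libraries low in Xist, 41 of 42 log2 fold changes were positive, with a median of 0.44. There 17 of 42 were higher at an unadjusted limma-trend p under 0.05, against 7.16% of all genes, and 0 had an adjusted p under 0.05. The genotypes did not overlap in 11, against 9.05%. With a trend on transcript length removed, 11 were higher at an unadjusted limma-trend p under 0.05, against 3.97%, and 1 did not overlap, against 2.21%. With 1 low-Xist library per genotype, no comparison within the low-Xist libraries could be made.

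By their median level, neutrophil markers were also highest in libraries 7 and 8, but the other libraries did not keep the same order. Of 10 listed neutrophil markers 6 were in the table, none at 0, and their summed level was 145.0 to 2567.1 normalized counts in wild type and 737.1 to 6432.6 in the libraries labelled heterozygote. The wild-type maximum was library 1, where Ltf alone had 2176.4, its highest value of the 8 libraries. In 4 of the 6 markers every library labelled heterozygote was above every wild-type library, against 3.4% of all genes in that direction. Ltf and Lcn2 overlapped. S100a8, a calcium-binding protein abundant in neutrophils, had 53.2, 9.5, 30.2 and 12.1 in the wild-type libraries. It had 231.4, 88.0, 1145 and 827.0 in heterozygote-labelled libraries 5 to 8. The primary granule genes Mpo and Elane, and Camp and Retnlg, were not analysed here. Libraries 7 and 8, the highest in S100a8, were also the highest by the median deviation of the interferon-stimulated genes, at 0.62 and 0.22 on the log2 scale. Wild-type library 2 followed at 0.17, with the lowest neutrophil median of the 8 libraries (-2.35). Heterozygote-labelled library 5 had the neutrophil median next below those of libraries 7 and 8 (1.05), but -0.19 for the interferon-stimulated genes. Without libraries 7 and 8 the median log2 fold change was 0.08, 28 of 42 were positive and 0 had an unadjusted limma-trend p under 0.05, against 1.88% of all genes that were higher in that fit (696 genes in either direction, where all 8 libraries gave 2090). The genotypes did not overlap in 3 members, against 6.62%. The part of neutrophils in the difference was not tested.

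Markers of other cells were read in the same way. The 10 macrophage and microglia markers, all in the table, summed to 4101.9 to 6187.6 normalized counts in wild type and 3683.3 to 4954.1 in the libraries labelled heterozygote, and 8 of the 10 had a negative log2 fold change. Of 7 monocyte and dendritic cell markers 5 were in the table, none at 0, and they summed to 512.5 to 877.5 in wild type and 652.6 to 780.7 in the libraries labelled heterozygote. Flt3 made up most of each sum, with 342.6 to 774.6 in wild type and 494.7 to 675.6 in the libraries labelled heterozygote. The median deviation of the 5 markers was highest in heterozygote-labelled library 7 (1.43 on the log2 scale), wild-type library 2 (0.56) and heterozygote-labelled library 8 (0.51). These were the top 3 libraries of the interferon-stimulated genes too, in another order. Wild-type library 1 was close behind at 0.46, but had -0.07 for the interferon-stimulated genes. Ly6c2, a surface protein of inflammatory monocytes, had 159.3 normalized counts in library 7 and 7.5 to 53.1 elsewhere. Ccr2 (65.0) and Itgax (35.8) were also highest in library 7, but Flt3 and Siglech were not. Flt3 had 494.7 there, the lowest of the libraries labelled heterozygote. Siglech had 53.2 to 92.1 in wild type and 21.7 to 47.9 in the libraries labelled heterozygote, with 22.6 in library 7 (log2 fold change -1.14, limma-trend unadjusted p 0.00896, adjusted p 0.266). The part of these cells in the difference was not tested. The 7 endothelial markers summed to 6297.8 to 8200.6 in wild type and 5739.1 to 6834.4 in the libraries labelled heterozygote. Of 10 T and NK cell markers only Cd4 was in the table, and of 4 B cell markers only Cd79a was. Cd79a had 9.1 to 24.2 normalized counts in wild type and 26.1 to 59.1 in the libraries labelled heterozygote.

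**Figure D2:**
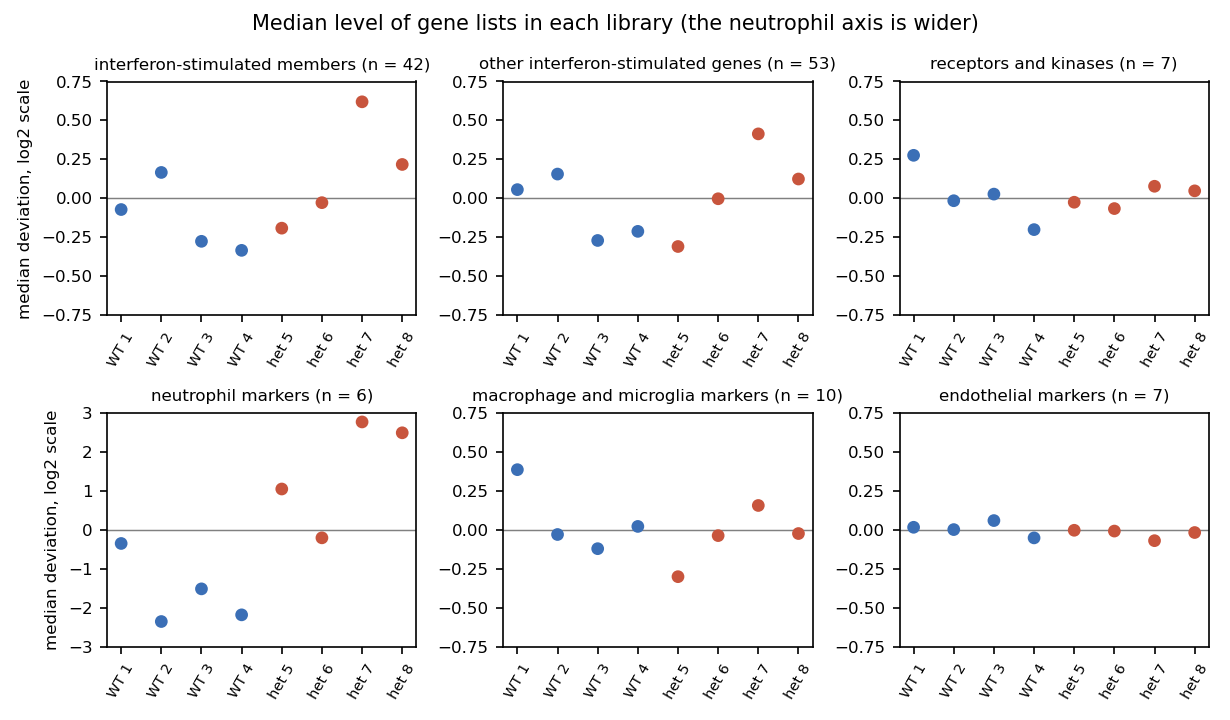
Median deviation of 6 gene lists in each library, on the scale log2(normalized counts + 1), with wild type in blue and the libraries labelled heterozygote in red; the neutrophil panel has a wider axis. Heterozygote-labelled library 7 is highest in both interferon-stimulated lists, where its medians are 0.62 and 0.41, and in the neutrophil list at 2.77, and the receptor and endothelial lists stay within 0.28 of the mean.

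Signalling proteins and transcription factors of the pathway were taken first. All 4 listed members (Stat2, Irf9, Irf1, Irf7) had a positive log2 fold change, with a median of 0.29, and all 4 were highest in heterozygote-labelled library 7. Irf7, the factor that amplifies type I interferon production, had 81.8, 294.9, 128.3 and 120.8 normalized counts in the wild-type libraries. In the libraries labelled heterozygote it had 122.7, 399.1, 574.9 and 330.0. Libraries 6, 7 and 8 were above every wild-type library, and library 5 lay inside the wild-type range. This gave a log2 fold change of 1.15 ± 0.46 (SE, limma-trend unadjusted p 0.0276, adjusted p 0.313), and 0.86 without library 7 (unadjusted p 0.0930).

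Stat2, which acts in the type I response together with IRF9, had 624.2, 533.0, 554.4 and 463.2 normalized counts in wild type and 506.3, 505.9, 712.7 and 637.3 in the libraries labelled heterozygote. The genotypes overlapped, and the log2 fold change of 0.11 was smaller than its standard error of 0.15 (limma-trend adjusted p 0.742), with 0.02 to 0.18 over the fits without 1 library. Irf9, the DNA-binding part of the same complex, and Irf1, a factor induced mainly by type II interferon, gave 0.31 and 0.26 on the log2 scale (limma-trend adjusted p 0.469 and 0.409).

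The sensors of foreign nucleic acid gave 5 positive log2 fold changes out of 5, from 0.28 to 0.45. Ddx58 encodes RIG-I, which recognises short double-stranded RNA ends in the cytoplasm. Its gene lies on chromosome 4 at 40203777 to 40239825 (GRCm38, the build named mm10 in the submitters' processing notes). It had 275.1, 360.4, 336.4 and 306.8 normalized counts in wild type and 388.9, 409.5, 509.8 and 436.9 in the libraries labelled heterozygote. The genotypes did not overlap, and library 7 was again the highest. Ddx58 thus had a log2 fold change of 0.45 ± 0.14 (SE, limma-trend unadjusted p 0.00939, adjusted p 0.266), and the unadjusted p was under 0.05 in 17 of 18 alternatives, the exception being the fit without libraries 7 and 8.

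Ifih1 encodes MDA5, the sensor of long double-stranded RNA, and Dhx58 encodes LGP2, which modulates both sensors. Their log2 fold changes were 0.34 and 0.41 (limma-trend adjusted p 0.512 and 0.639), and Dhx58 was highest in wild-type library 1 (185.6, against 47.7 to 162.1 elsewhere). Ddx60, a helicase tied to RIG-I signalling, and Eif2ak2, the kinase PKR that halts translation on binding double-stranded RNA, had log2 fold changes of 0.43 and 0.28 (limma-trend adjusted p 0.570 and 0.528).

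The IFIT proteins bind foreign or uncapped RNA, and the oligoadenylate synthetases activate RNase L. These 6 genes had a median residual SD of 0.71 on the log2 scale, the largest spread of the 7 role groups, and 5 had a positive log2 fold change. Ifit3 had 577.7, 1486, 784.8 and 333.7 normalized counts in the wild-type libraries and 824.0, 822.3, 2361 and 932.1 in the libraries labelled heterozygote. Heterozygote-labelled library 7 was high and the other 3 lay inside the wild-type range, of which wild-type library 2 was the top. For Ifit3 the log2 fold change was 0.68 ± 0.42 (SE, limma-trend adjusted p 0.468). It was 0.32 when library 7 was left out, 0.33 when wild-type library 4 was and 1.05 when wild-type library 2 was. Of the windows of 50 bases in its longest transcript, 51.2% also occur in transcripts of Ifit3b, so the reads of this pair are uncertain. Ifit3b had a log2 fold change of 0.17 and was highest in the same libraries, with 761.5 in library 7 and 660.5 in wild-type library 2. Ifit1 and Ifit2 had log2 fold changes of 0.25 and 0.24 (limma-trend adjusted p 0.695 and 0.521).

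Oas2 had the largest fold change of the 42 members and few reads. It had 3.9, 12.6, 20.2 and 4.8 normalized counts in wild type and 9.8, 30.5, 51.8 and 35.6 in the libraries labelled heterozygote. Libraries 6, 7 and 8 were above every wild-type library and library 5 was not. On the log2 scale the difference was 1.58 ± 0.66 (SE, limma-trend unadjusted p 0.0342, adjusted p 0.326). In wild-type library 1 the value corresponds to 3 reads, and it was the single member not at 10 or more in all 8 libraries. Oasl2, an oligoadenylate synthetase-like protein, had a log2 fold change of 0.61 (limma-trend adjusted p 0.405). Oas1a had -0.24 (limma-trend adjusted p 0.827), was highest in wild-type library 1 at 190.1, and shares 57.6% of its windows with Oas1g.

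**Figure D3:**
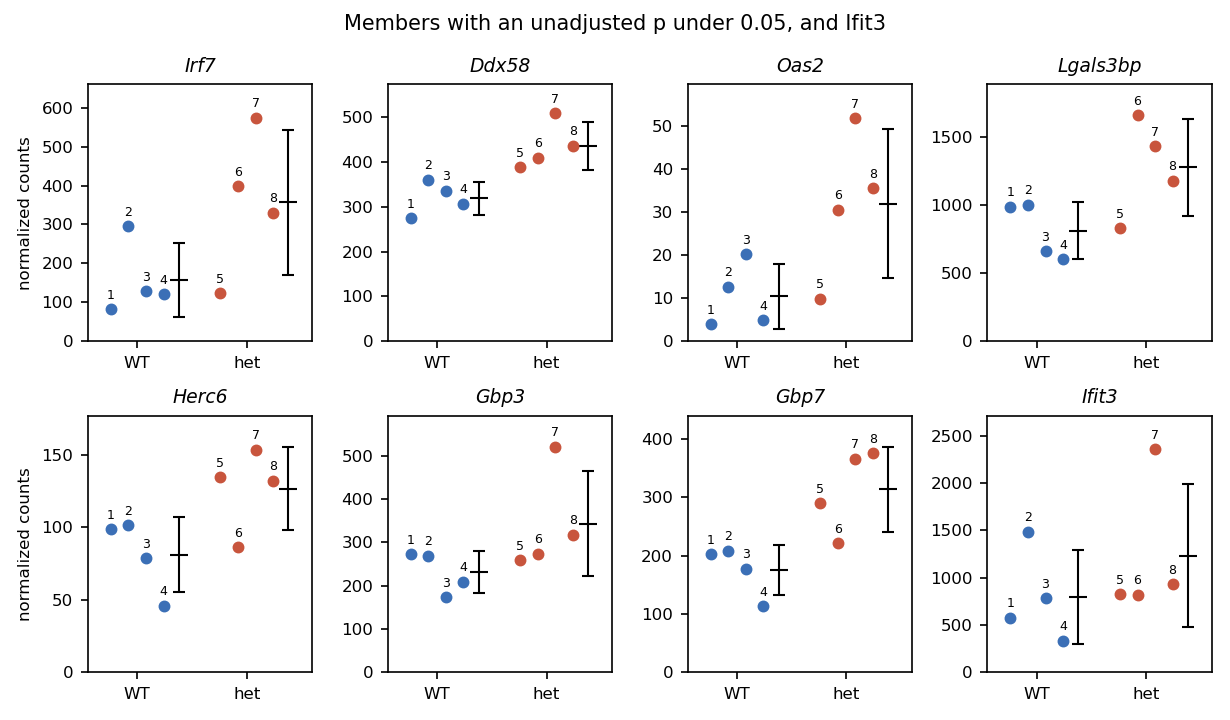
Normalized counts in each library for the 7 members with an unadjusted limma-trend p under 0.05 and for Ifit3; points are libraries with their numbers, and the black mark and bar are the mean and SD of the 4 libraries. The genotypes are apart in Ddx58 and Gbp7 and overlap in the other 6, and Ifit3 shows library 7 at 2361 against 822.3 to 932.1 in the other libraries labelled heterozygote.

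Among the 11 other antiviral effectors, 9 had a positive log2 fold change, with a median of 0.34. Lgals3bp, a secreted glycoprotein that binds galectins, had 990.2, 1003, 660.0 and 601.5 normalized counts in wild type. It had 831.0, 1665, 1436 and 1181 in the libraries labelled heterozygote, where libraries 6, 7 and 8 exceeded every wild-type library. The difference on the log2 scale was 0.64 ± 0.22 (SE, limma-trend unadjusted p 0.0139, adjusted p 0.278). Library 6 was its highest, not library 7, and without library 7 the log2 fold change was 0.57 (unadjusted p 0.0411).

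Ifitm3, which blocks virus entry at endosomal membranes, had 1447, 1352, 879.0 and 1234 normalized counts in wild type and 1003, 1626, 1869 and 1351 in the libraries labelled heterozygote, and the genotypes overlapped (log2 fold change 0.24 ± 0.20, SE, limma-trend adjusted p 0.579; 0.09 without wild-type library 3, 0.11 without library 7 and 0.41 without library 5). Rsad2 encodes viperin, which makes a chain-terminating nucleotide from the product of the neighbouring kinase gene Cmpk2. Rsad2 had a log2 fold change of -0.20 (limma-trend adjusted p 0.846) and Cmpk2 of 0.20 (0.773). Both were high in wild-type library 2 and heterozygote-labelled library 7, at 371.4 and 416.5 for Rsad2 and 677.4 and 669.1 for Cmpk2. The remaining effectors ranged from -0.05 for Xaf1, a pro-apoptotic protein, to 0.45 for Ifi44. Bst2, or tetherin, which holds budding virus at the cell surface, had 0.39, and Samhd1, which depletes deoxynucleotides, had 0.21.

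ISG15 is a ubiquitin-like modifier, Herc6 is the mouse ligase that attaches it, and Usp18 removes it and also dampens the type I receptor. All 8 members of the group on ISG15, ubiquitin and ADP-ribose had a positive log2 fold change, with a median of 0.28. Herc6 had 98.6, 101.7, 78.8 and 45.9 normalized counts in wild type and 134.7, 86.3, 153.6 and 132.2 in the libraries labelled heterozygote. Here library 5 was high and library 6 lay inside the wild-type range. Herc6 gave 0.67 ± 0.30 on the log2 scale (SE, limma-trend unadjusted p 0.0474, adjusted p 0.352), and 0.42 without wild-type library 4. Of its windows of 50 bases, 23.8% also occur in transcripts of Gm45193.

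Usp18 had 33.7, 141.9, 79.7 and 49.5 normalized counts in wild type and 74.9, 104.6, 260.1 and 78.8 in the libraries labelled heterozygote, where only library 7 exceeded wild-type library 2. Its log2 fold change was 0.76 ± 0.48 (SE, limma-trend adjusted p 0.476), 0.36 without library 7 and 0.44 without wild-type library 1. Isg15 itself had 240.1, 270.5, 178.7 and 152.2 in wild type and 169.5, 184.7, 481.6 and 209.1 in the libraries labelled heterozygote. Its log2 fold change of 0.21 (limma-trend adjusted p 0.777) was -0.13 without library 7. Trim25, a ubiquitin ligase that acts on RIG-I, had 577.5, 555.9, 360.2 and 417.9 in wild type. It had 433.4, 533.2, 664.4 and 587.9 in the libraries labelled heterozygote (log2 fold change 0.22 ± 0.18, SE, limma-trend adjusted p 0.572; 0.10 without wild-type library 3, 0.13 without library 7 and 0.34 without library 5). The partners Parp9 and Dtx3l overlap by 558 bases on chromosome 16, and whether reads were counted by strand is not given in the sources used here. Their log2 fold changes were 0.33 and 0.19.

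The interferon-inducible GTPases, which gather on the membranes around intracellular pathogens, had 6 positive log2 fold changes out of 6 and a median of 0.44. Gbp7 had the smallest p of all 42 members. It lies on chromosome 3 at 142530336 to 142550151 (GRCm38), beside Gbp3 at 142560016 to 142573213. It had 202.5, 208.2, 177.8 and 113.5 normalized counts in wild type and 290.0, 221.3, 366.1 and 375.7 in the libraries labelled heterozygote, so that the lowest of the second group lay just above the highest of the first. The means were 176 ± 43.4 and 313 ± 72.3 (SD, n = 4 each), or 0.84 ± 0.24 on the log2 scale (SE, limma-trend unadjusted p 0.00419, adjusted p 0.236). Without library 7 the log2 fold change was 0.75 (unadjusted p 0.0163), and the unadjusted p was under 0.05 in 17 of 18 alternatives, all but the fit without libraries 7 and 8. In the authors' deposited table the ratio was 1.78 with an FDR of 0.0438.

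Gbp3 had 272.5, 269.7, 173.2 and 209.0 normalized counts in wild type and 258.5, 273.6, 520.7 and 318.1 in the libraries labelled heterozygote. Library 6 was barely above the wild-type maximum and library 5 was below it. Gbp3 differed by 0.53 ± 0.24 on the log2 scale (SE, limma-trend unadjusted p 0.0447, adjusted p 0.344), and 0.31 without library 7 (unadjusted p 0.167). Of the windows of Gbp3, 4.79% also occur in Gbp7. Of the windows of Gbp7 itself, 12.85% occur in other genes, with 10.57% in Gm43802. Irgm1, a regulator of the other GTPases, had 504.8, 591.4, 328.2 and 262.1 in wild type and 412.8, 501.9, 754.8 and 566.3 in the libraries labelled heterozygote, with overlap (log2 fold change 0.45 ± 0.26, SE, limma-trend adjusted p 0.435). Its log2 fold change was 0.24 without wild-type library 4 and 0.29 without library 7. Gbp2, Iigp1 and Igtp had log2 fold changes of 0.43, 0.32 and 0.19.

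The immunoproteasome subunits, which reshape the peptides shown on MHC class I, had no positive log2 fold change. Psmb8 had 347.8, 265.0, 138.4 and 211.4 normalized counts in wild type and 193.3, 200.4, 290.3 and 228.8 in the libraries labelled heterozygote, with the highest value in wild-type library 1. Its log2 fold change was -0.02 ± 0.26 (SE, limma-trend adjusted p 0.981), and its sign depended on the processing: it was 0.26 without both libraries low in Xist. That of Psmb9 was -0.0003 ± 0.29 (SE).

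**Figure D4:**
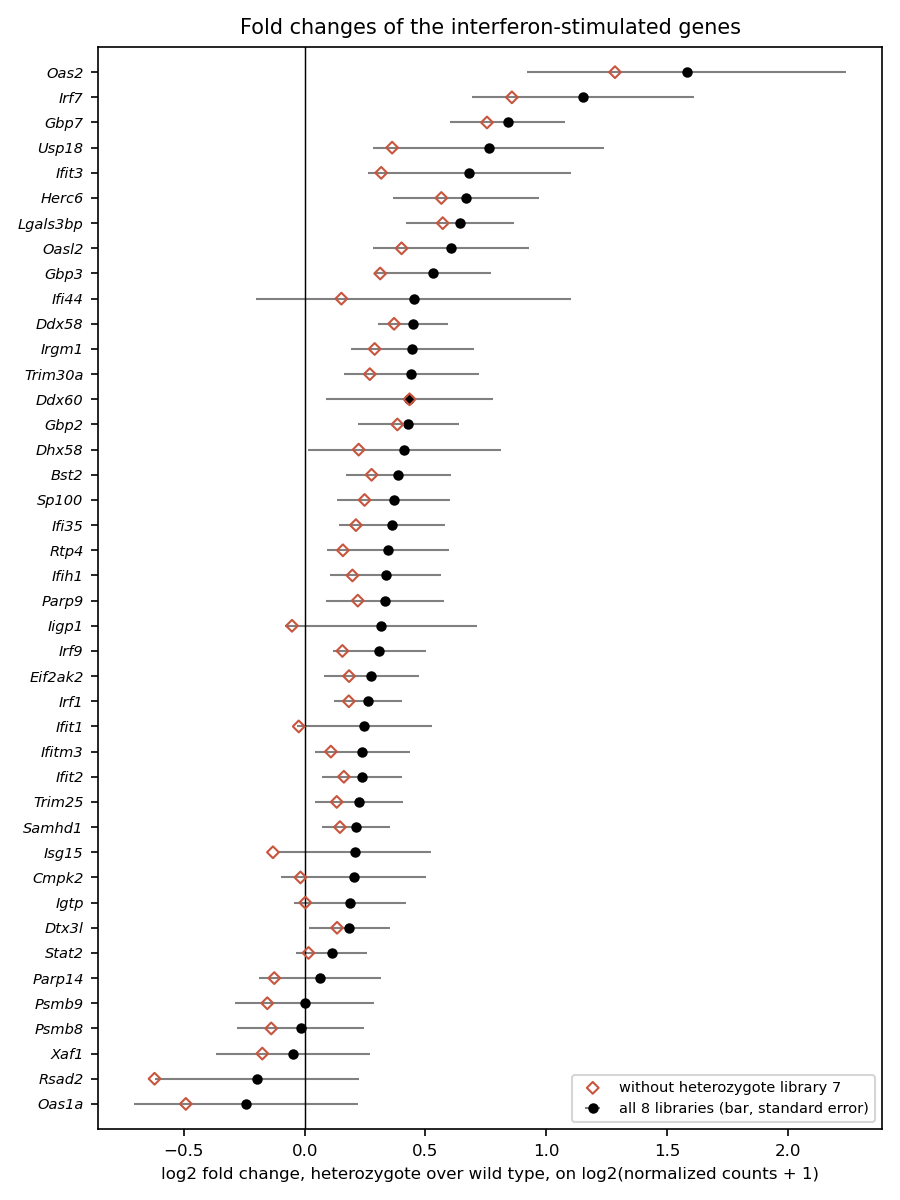
Log2 fold change of each of the 42 members, heterozygote over wild type on log2(normalized counts + 1), with the standard error as a bar; open diamonds are the values without heterozygote-labelled library 7. With all libraries 37 lie above 0 and 13 have a size under their standard error, and without library 7 there are 10 below 0.

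Promoters of the members were searched for both motifs of the pathway. The members were listed as interferon-stimulated genes, so a high share with these motifs can come from that choice alone, whatever their level here. RefSeq promoter sequences (GRCm38.p6, from 250 bases before to 50 after a start site) matched 35 of the 42 by symbol. Dhx58, Parp14, Iigp1, Oas2, Usp18, Parp9 and Rtp4 had no entry. The core of the interferon-stimulated response element was written as GAAA, NN (any 2 bases) and GAAA in a row, and the gamma-activated site as TTCNNNGAA. Both strands were searched, and copies were allowed to overlap. The first was found in 18 of 35 members (51.4%), against 3.99% of 27025 genes and 3.65% of the 11723 tested genes with a promoter. The second was found in 11 of 35 (31.4%), against 9.55% of all genes and 8.11% of tested genes.

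Stretches of 160 bases that end at the base before the start site are shown for 3 members that were high in heterozygote-labelled library 7 (Ifit1, Rsad2, Isg15) and for Gbp7, which had the smallest p. They are written 5′ to 3′ on the strand of the gene, and capitals mark matches to either motif on either strand. They lie at chr19:34640729-34640888 (plus strand), chr12:26456453-26456612 (minus strand), chr4:156200819-156200978 (minus strand) and chr3:142530176-142530335 (plus strand), in that order.
Ifit1: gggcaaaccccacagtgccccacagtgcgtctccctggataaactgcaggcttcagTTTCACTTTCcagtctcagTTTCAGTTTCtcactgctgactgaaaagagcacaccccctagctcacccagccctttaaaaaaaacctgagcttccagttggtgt
Rsad2: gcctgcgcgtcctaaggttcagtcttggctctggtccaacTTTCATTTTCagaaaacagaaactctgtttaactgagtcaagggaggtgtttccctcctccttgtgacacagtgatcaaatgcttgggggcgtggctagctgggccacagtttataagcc
Isg15: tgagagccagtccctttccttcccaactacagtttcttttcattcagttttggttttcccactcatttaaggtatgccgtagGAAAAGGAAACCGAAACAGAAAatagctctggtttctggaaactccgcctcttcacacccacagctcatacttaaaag
Gbp7: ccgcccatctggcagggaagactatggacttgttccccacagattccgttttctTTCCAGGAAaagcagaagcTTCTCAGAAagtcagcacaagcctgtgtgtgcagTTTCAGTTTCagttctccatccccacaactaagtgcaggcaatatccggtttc

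Counted from the start site, Ifit1 held the first motif at -104 to -95 and at -85 to -76, on the minus strand in both cases, and Rsad2 held it once at -120 to -111. Isg15 held 3 overlapping copies on the plus strand from -78 to -57. Gbp7 held 1 copy at -53 to -44 and TTCNNNGAA at -106 to -98 and -87 to -79. Members with the first motif (18) and without it (17) had median log2 fold changes of 0.36 and 0.26. Their median deviation in heterozygote-labelled library 7 was 0.64 and 0.54. These are descriptions of the letters in a window, and no test was made on them.

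The members also varied more between mice of one genotype than most genes did. Their median residual SD was 0.40 on the log2 scale, against 0.26 for the 11433 genes whose mean lay in the members' range, and 36 of the 42 were above that value. In 8 of the 42 the wild-type libraries alone spanned more than 3-fold. Wild-type library 2 was the highest wild-type library in 27 members and library 1 in 13. The counts over 3-fold and within a genotype were not taken over all genes. Of all 8 libraries, wild-type library 1 was the lowest in 13 of the 42, against 27.6% of all genes tested. It was the highest in 4, against 26.1%. In the libraries labelled heterozygote, library 7 was the highest in 39 and library 5 the lowest in 28.

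The rest of the pathway was read from lists of receptors and kinases, upstream adaptors, interferon genes, negative regulators and other interferon-stimulated genes. Of 92 symbols 79 were in the table and 78 were tested; 0 had a limma-trend adjusted p under 0.05. At an unadjusted p under 0.05, 3 were higher, against 6.72% of all genes, and 2 were lower, against 7.34%. None of the 5 listed interferon genes, Ifnb1 and Ifng among them, has a row that could be analysed here. The receptors and kinases stayed close to 0. The 4 receptor genes had log2 fold changes of -0.02 (Ifnar1), -0.09 (Ifnar2), -0.16 (Ifngr1) and -0.16 (Ifngr2), and those of the kinases were 0.22 (Jak1), 0.06 (Jak2) and 0.11 (Tyk2).

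Of the upstream adaptors, Mavs, the mitochondrial protein that relays the signal of RIG-I and MDA5, had a log2 fold change of 0.38 (limma-trend unadjusted p 0.0291, adjusted p 0.316). Heterozygote-labelled library 6 was its highest at 738.0, and library 5 (489.9) lay below wild-type library 1 (532.1). Socs1, which inhibits the kinases, had 15.6, 48.1, 36.7 and 10.9 in wild type and 54.3, 51.4, 59.4 and 36.6 in the libraries labelled heterozygote, a log2 fold change of 1.04 (limma-trend unadjusted p 0.0491, adjusted p 0.354).

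Of the 53 tested genes among the other interferon-stimulated genes, 34 had positive and 19 negative log2 fold changes, and the median was 0.21. Znfx1, an RNA helicase, was apart between genotypes, at 1374 to 1967 normalized counts in wild type and 2006 to 2397 in the libraries labelled heterozygote (log2 fold change 0.34, limma-trend unadjusted p 0.0145, adjusted p 0.278). Phf11b was apart in the other direction, at 12.8 to 37.6 and 0.9 to 11.3 (log2 fold change -2.18, limma-trend unadjusted p 0.0103, adjusted p 0.266), and its lowest value is under the 3 reads that correspond to 2.61 normalized counts in that library. Oasl1 had 36.2 to 67.0 in wild type and 3.3, 21.8, 52.8 and 14.1 in the libraries labelled heterozygote (log2 fold change -1.55, limma-trend unadjusted p 0.0359, adjusted p 0.329), with library 7 inside the wild-type range.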

How the data were processed

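The authors' table holds signal values for 8 libraries, deposited as read counts scaled by a library factor, as judged from the values. Partek, STAR and DESeq2 and the build mm10 are named, per the submitters' processing notes, without roles; the counting method and annotation are not given in the sources used here. Per the file headers, the authors' deposited columns also hold a p-value and an FDR for heterozygote against wild type, and a ratio, its log2, and a signed score that was not used. RNA with an integrity number under 7 was excluded, and directional poly(A) libraries were made from 50 ng, per the labels' protocols.

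Between 72.9% and 87.7% of values under 300 came out as whole reads (tolerance 0.06), too few for a count model. Genes at 10 or more normalized counts in 4 or more libraries, 14870 in all, were fitted on log2(value + 1) with limma-trend (limma 3.58.1, R 4.3.3) on the 8 libraries, without covariates. In fits with fewer libraries the filter asked for as many libraries as the smaller group had. Tables and figures used Python 3.11.15 (numpy 2.4.6, pandas 2.3.3, matplotlib 3.10.9). The fit was also run on simulated data in which all genes had 1 common relative spread and varied independently. That run does not show how the fit performs on the members, which varied more than most genes. No label gives a batch. That the 2 cochleas of each mouse were pooled makes a library 1 mouse.

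Members, role groups and lists were chosen with earlier results of these data known. Values in every library were given for members with an unadjusted p under 0.05, the 6 largest fold changes, and the highest and the smallest-p member of each role group; Isg15 and Rsad2 were added after their values were seen, as were the promoters shown. Some genes are not reported here, and the lists leave them out. Windows of 50 bases came from the longest GENCODE M21 transcript. The alternatives were pseudocounts of 0.1 and 10, no filter or a filter at 50, upper-quartile and quantile scaling, low Xist (under 100) as a covariate or left out, removal of a transcript length trend (loess, span 0.5), and each library left out; leaving out the 2 libraries highest in S100a8 was added after seeing the data.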

Additional observations from a re-analysis of the deposited data

Results flagged for a closer look

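In 86 groups of 4 libraries, 42 members and their median deviation in each genotype, the gap between an extreme library and its nearest neighbour was divided by the group's range. For the members the ratio was taken on normalized counts, not on the log2 scale of the fits. In 7 groups it was above Dixon's critical value for 4 samples. For normally distributed values about 1 in 20 groups, or 4.3, would pass by chance. Whether that rate holds for unlogged counts was not tested, and the members vary together. The 7 groups are therefore a description, and no excess over chance is drawn from them. Heterozygote-labelled library 7 was high in 4 of the 7 groups. Ifit3 had a ratio of 0.929, with 2361 normalized counts against 822.3 to 932.1 in the other 3. Isg15 had 0.873, with 481.6 against 169.5 to 209.1. Rsad2 had 0.848, with 416.5 against 102.1 to 149.9, and Usp18 had 0.840, with 260.1 against 74.9 to 104.6. In the wild-type group, library 2 was high in 2 GTPase genes: Igtp with 0.915 (384.0 against 234.5 to 247.2) and Iigp1 with 0.843 (335.9 against 123.3 to 156.7). Wild-type library 1, low in Xist, was high in Xaf1 with 0.885 (173.9 against 83.4 to 93.8).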

How the results depend on the processing

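No paired analysis was possible because the genotypes share no replicate numbers. No member had a limma-trend adjusted p under 0.05 in the 18 alternatives tried. Over the fits without 1 library, the lowest count of members at an unadjusted p under 0.05 was 3. That was without wild-type library 4 or heterozygote-labelled library 7, where 4.88% and 4.93% of all genes were higher at that p. The highest was 13, without wild-type library 2, against 6.41%. The count of members at that p was 17 without the 2 libraries low in Xist, 11 with the transcript length trend removed and 0 without the 2 libraries highest in S100a8, where 7.16%, 3.97% and 1.88% of all genes were higher. Members whose genotypes did not overlap numbered 11, 1 and 3 in these 3 settings, against 9.05%, 2.21% and 6.62% of all genes in that direction. Such members numbered 2 to 9 over the fits without 1 library, with 9 without heterozygote-labelled library 5, against 6.0%. Over all genes, 12 had an adjusted p under 0.05; it was 7 with quantile normalization, 30 with the length trend removed, 0 without the 2 libraries highest in S100a8 (696 at an unadjusted p under 0.05), and 0 to 223 over the fits without 1 library (highest when library 3 was left out, and 0 when library 2, 4 or 8 was). The median log2 fold change of the members stayed positive, from 0.08 without the 2 libraries highest in S100a8 to 0.44 without heterozygote-labelled library 5. Of 251 log2 fold changes of the 14 named members under the alternatives, 244 kept their direction and 7 changed sign, 6 of them for Psmb8. Psmb8 had 0.26 without the libraries low in Xist, 0.0734 with the length trend removed and -0.26 to 0.19 over the fits without 1 library. Stat2 had -0.10 without the 2 libraries highest in S100a8. The cause was not tested. Depth limits Oas2, which had 3 reads in wild-type library 1.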
